A study of Solenopsis invicta with 32 samples.

Results

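In brains and ovaries of young fire ant queens (gynes), 85 of 16314 gene models were lower after overwintering in both organs. A member had a median of at least 5 CPM (the count divided by the gene counts of its library, times 1000000) in the spring-reared gynes of each organ, and its spring-reared median was at least 1.5 times its overwintered median in each organ, with 0.1 CPM added to both medians. Of the 16314 models, 6711 passed the floor of 5 CPM in both organs and serve below as the genes of comparison; the 85 members are 1.27% of them. Since the members were chosen by these group medians, their overwintering values are given as a description with no test of their own.

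The study compared gene expression of overwintered and spring-reared gynes of Solenopsis invicta, to find genes tied to plasticity in the weight of queens. Brain and ovary RNA of 16 gynes, 8 spring-reared and 8 overwintered, gave 32 libraries in 4 groups by organ and treatment, 8 libraries each. Every gyne was SB/SB at the social supergene and came from a monogyne colony, 1 gyne per colony, so neither the other supergene form nor polygyne colonies were compared here. The Smart-seq2 libraries were made from polyadenylated RNA, with an input of 1.6 ng for a brain and 8.0 ng for an ovary, and each organ was extracted with its own kit. The labels give no ages.

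A gyne is a winged female that can become a queen. Fire ant gynes usually fly to mate in the warm season and found a colony from body reserves laid down before the flight, while some remain in the nest over the winter. Monogyne colonies hold a single egg-laying queen, and the supergene is a stretch of linked genes that goes with the social form of the colony.

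The files do not pair identifiers with gene names, and 0 of the 16314 identifiers, hence 0 of the 85 members, matched the reference gene table. No member could therefore be given a function, and the organ labels could not be checked against markers of nerve, germ line, fat body, muscle or blood cells. The 2 members named here carry the identifiers of the files; the rest are described by their place in an order of ratio or level. In these bulk samples, fewer cells of a type and less RNA per cell cannot be told apart, and reads of overlapping genes or near-identical copies cannot be separated.

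Gene counts ran from 9612985 to 23656547 per library. More genes were detected in overwintered brains (10675 to 11333) than in spring-reared brains (9854 to 10569), with no overlap, and 11144 to 11596 against 10558 to 11212 in ovaries; the part of this in the members' values was not tested. Spring-reared ovary 6 lay at -6.52 on the first principal component of the ovaries, beside overwintered ovaries (-40.0 to 2.04) and apart from the other spring-reared ones (16.6 to 29.3). Spring-reared brains 4 and 7 and overwintered ovaries 1 and 5 also stood apart, and without these 5 libraries the same rule gave 71 genes, 58 of them among the 85. This set was chosen after seeing the data and leaves out overwintered brain 1. That library lay at 3.12 on the first component of the brains, beside the spring-reared ones (4.49 to 48.0), and had the fewest gene counts. Without it alone, the rule gave 82 genes, 73 of them among the 85. The colony code begins one way in every overwintered gyne and another way in every spring-reared gyne, so whatever the code marks cannot be told apart from treatment.

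Most members were lower by a modest factor, and a few by a large one. In brain the spring-reared over overwintered ratio ran from 1.5003 to 108.2 with a median of 1.98, and 75 of the 85 members lay under 3. In ovary it ran from 1.5026 to 72.6 with a median of 1.97, and 71 lay under 3. Neither organ held the larger ratios: 43 members had the larger ratio in brain and 42 in ovary, and 21 reached 2 in both. The median over the 6711 genes was 0.910 in brain, a shift of -0.14 on the log2 scale, and 1.03 in ovary. With library sizes adjusted by TMM factors, the rule gave 114 genes, 79 of them among the 85.

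**Figure D1:**
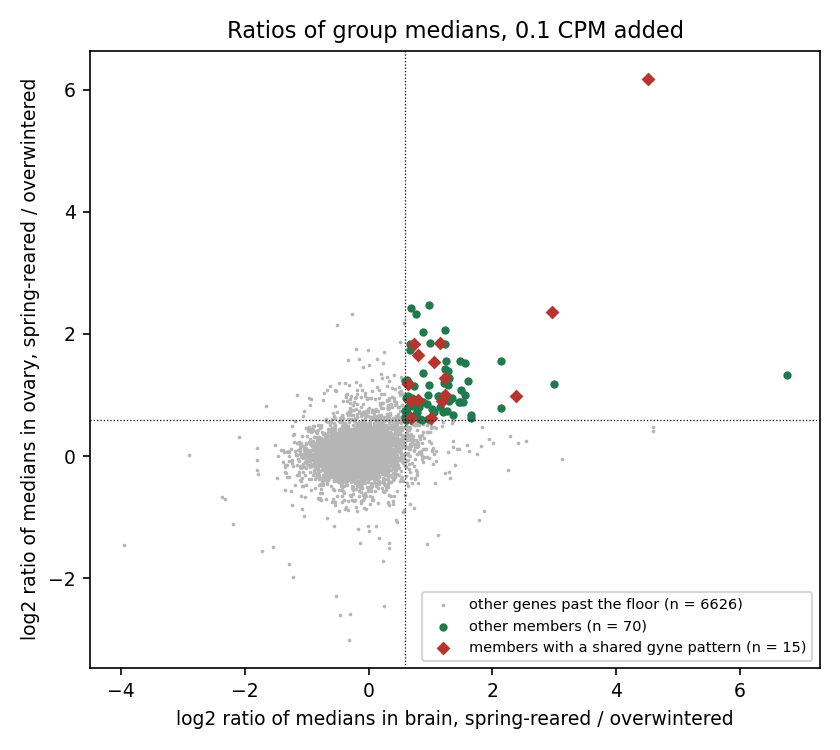
Each point is 1 of the 6711 genes with spring-reared medians of at least 5 CPM in both organs, at its log2 ratio of medians in brain (x axis) and ovary (y axis); dotted lines mark a ratio of 1.5. The 85 members fill the upper right corner by the rule, most of them close to the lines, with brain ratios up to 108.2 and ovary ratios up to 72.6.

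The ratio limit cut through a continuous range of values. The 3 members just inside it had smaller ratios of 1.5003, 1.5022 and 1.5026, and the 3 genes just outside had 1.4972, 1.4988 and 1.4993. The smaller ratio was between 1.4 and 1.5 in 51 genes past the floor, and under 1.6 in 24 of the members. At the floor, the lowest members had smaller spring-reared medians of 5.09, 5.23 and 5.27 CPM, and genes with large enough ratios just outside had 4.55, 4.93 and 4.93 CPM. The ratio limit of 1.5 was met in brain by 255 of the genes past the floor, of which the members are 33.3%, and in ovary by 311, of which they are 27.3%.

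Members covered a wide range of levels. Their spring-reared medians ran from 5.23 to 15316 CPM in brain (median of the members 60.5) and from 5.09 to 17635 CPM in ovary (37.7). The overwintered medians ran from 0.171 to 8885 CPM in brain (26.4) and from 0.109 to 10743 CPM in ovary (15.7). After overwintering 14 members stood under 5 CPM in brain and 16 in ovary, whereas at 100 CPM or more there were 29 members in spring-reared and 14 in overwintered brain, and 19 and 11 in ovary.

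Single gynes departed from their group for many members. A library was counted on the overwintered side for a member when it lay below the geometric midpoint of that organ's pair of medians, 0.1 CPM added. Spring-reared brain 8 lay on that side for 37 of the 85 members and spring-reared brain 6 for 30, against 8 for spring-reared brain 4. Overwintered brain 8 lay on it for 51 members and overwintered brain 7 for 76. In ovary, spring-reared libraries lay on the overwintered side for 4 to 30 members and overwintered libraries for 54 to 81, with overwintered ovary 5 at 81. Counted over libraries, 8 members (9.41%) had all 8 spring-reared brains above all 8 overwintered brains, where 0.477% of the genes past the floor did, and 15 members (17.6%) had this in ovary, where 0.954% did; since the rule used these values, nothing is read from the gap.

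**Figure D2:**
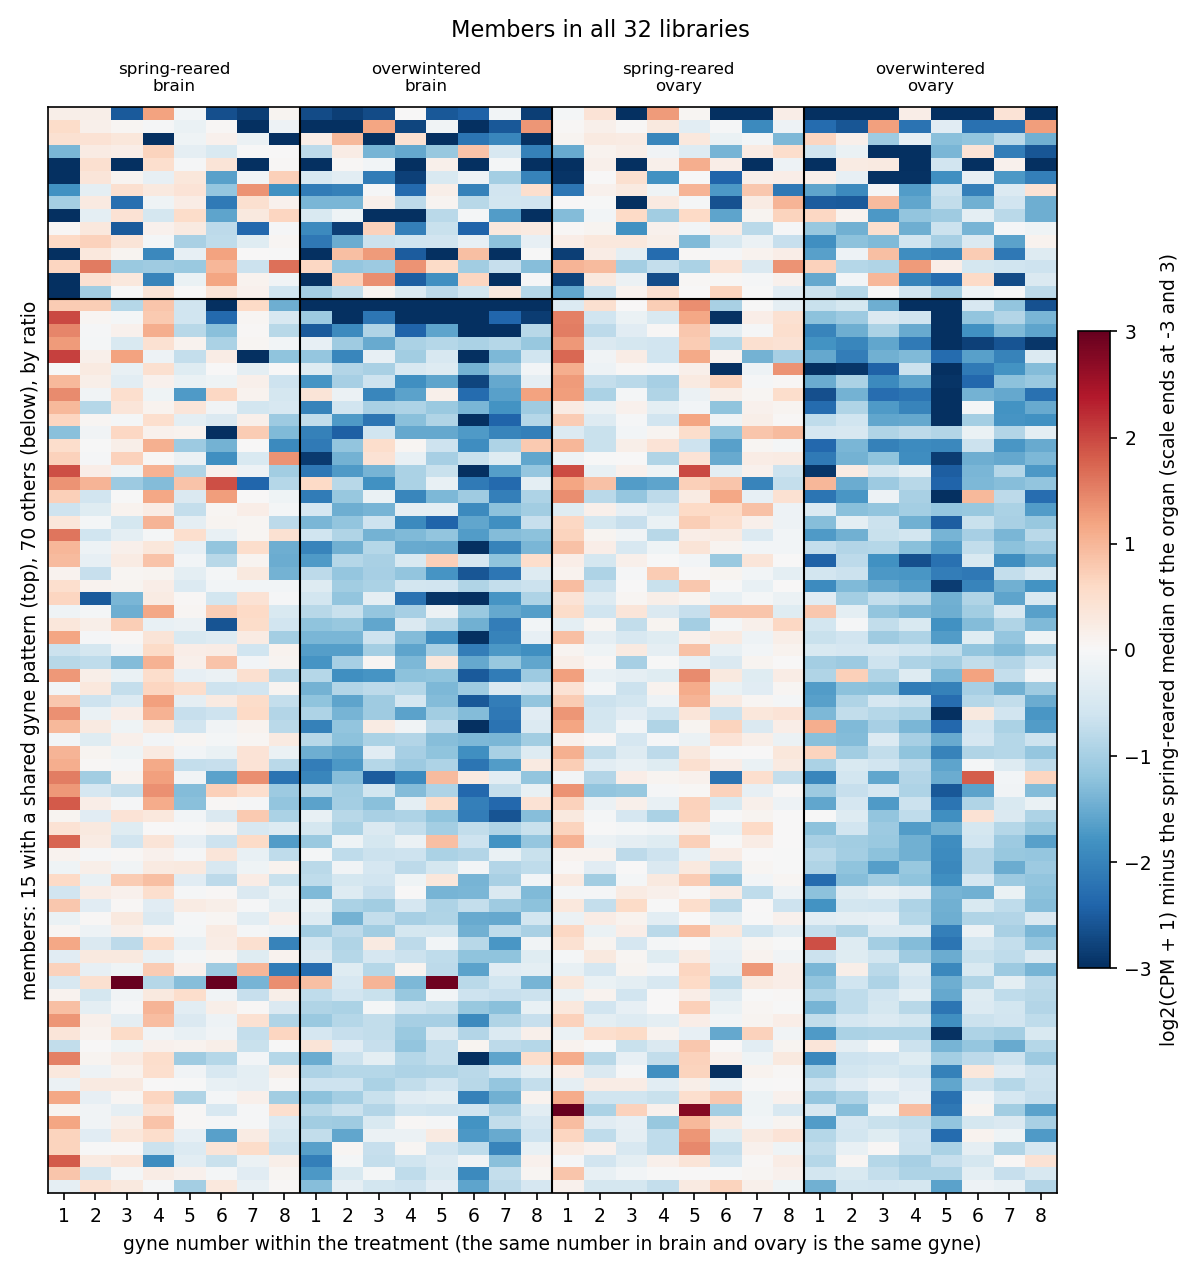
Rows are the 85 members, columns the 32 libraries in 4 groups of 8; colour gives log2(CPM + 1) minus the spring-reared median of the organ, red for higher and blue for lower. Among the 15 members at the top, single gynes of either treatment are dark blue in brain and ovary alike, while among the 70 below, the overwintered columns are paler blue throughout and overwintered brain 6 and overwintered ovary 5 are the darkest columns.

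A test across all genes, read here only as a description, called 45 of the 84 members it could test lower in overwintered brain (edgeR quasi-likelihood test, Benjamini-Hochberg adjusted p under 0.05), where 3.79% of 9570 genes were called lower. In ovary it called 46 of 84, where 5.28% of 9361 genes were called lower. Both organs were called in 31 members, brain alone in 14, ovary alone in 15 and neither in 25, among them SINVBB1_12429a, which the filter on low counts left out of both tests. The median log2 fold change of the tested members was -1.06 in brain and -0.90 in ovary, against 0.02 and 0.03 over all genes tested. The fit compares means and the rule compared medians, and 1 member had a positive fitted value in ovary, 0.25. Of the 85 genes that this test called lower in both organs, another set that happens to have the same size, 31 were members. Without the 5 libraries that stood apart, 29 members were called in brain and 45 in ovary.

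SINVBB1_12429a had the largest mean of the log2 ratios, 23.0-fold in brain and 72.6-fold in ovary, and it was present or nearly absent gyne by gyne. Spring-reared gynes 1, 2, 4, 5 and 8 held 5.75 to 15.53 CPM in brain and 14.5 to 38.2 CPM in ovary, and spring-reared gynes 3, 6 and 7 held 0 to 0.242 CPM in brain and 0 to 0.223 CPM in ovary. Among overwintered gynes, 4 and 7 held 6.14 and 5.78 CPM in brain and 17.4 and 20.3 CPM in ovary, while the other 6 held at most 0.337 CPM in brain and 0.150 CPM in ovary. The same gynes were thus high in both organs, 5 of 8 spring-reared and 2 of 8 overwintered, and the treatments overlapped fully. The group medians were 6.15 CPM for spring-reared and 0.171 CPM for overwintered brain, and 15.1 and 0.109 CPM in ovary. The brain values rest on 717 counts over the spring-reared and 172 over the overwintered libraries, and the ovary values on 1467 and 525.

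The files hold a second gene model with the same number and the letter b, which is no member and was looked at after these values were seen. It was lower in the gynes that were high for SINVBB1_12429a, most of which held both. Spring-reared gyne 4, the highest for SINVBB1_12429a, held 0 CPM of it in brain and ovary. Spring-reared gynes 3, 6 and 7 held 9.58 to 12.7 CPM of it in brain and 33.4 to 38.2 CPM in ovary. Spring-reared gynes 1, 2, 5 and 8, which held both, had 4.73 to 7.83 CPM of it in brain and 12.3 to 18.2 CPM in ovary. Overwintered gynes 4 and 7, which also held both, had 6.98 and 5.57 CPM in brain, against 11.02 to 13.97 CPM in the other 6. The sum of both models was 9.58 to 15.53 CPM in spring-reared brains (median 11.9) and 11.02 to 14.1 CPM in overwintered brains (12.1), and 26.8 to 38.4 CPM (35.4) and 26.7 to 40.3 CPM (31.6) in ovaries. The summed level of the pair overlapped between treatments in both organs. SINVBB1_12429a is the 1 member whose identifier carries a letter, which 1553 of the 16314 identifiers do; what the letter stands for is not given in the sources used here.

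**Figure D3:**
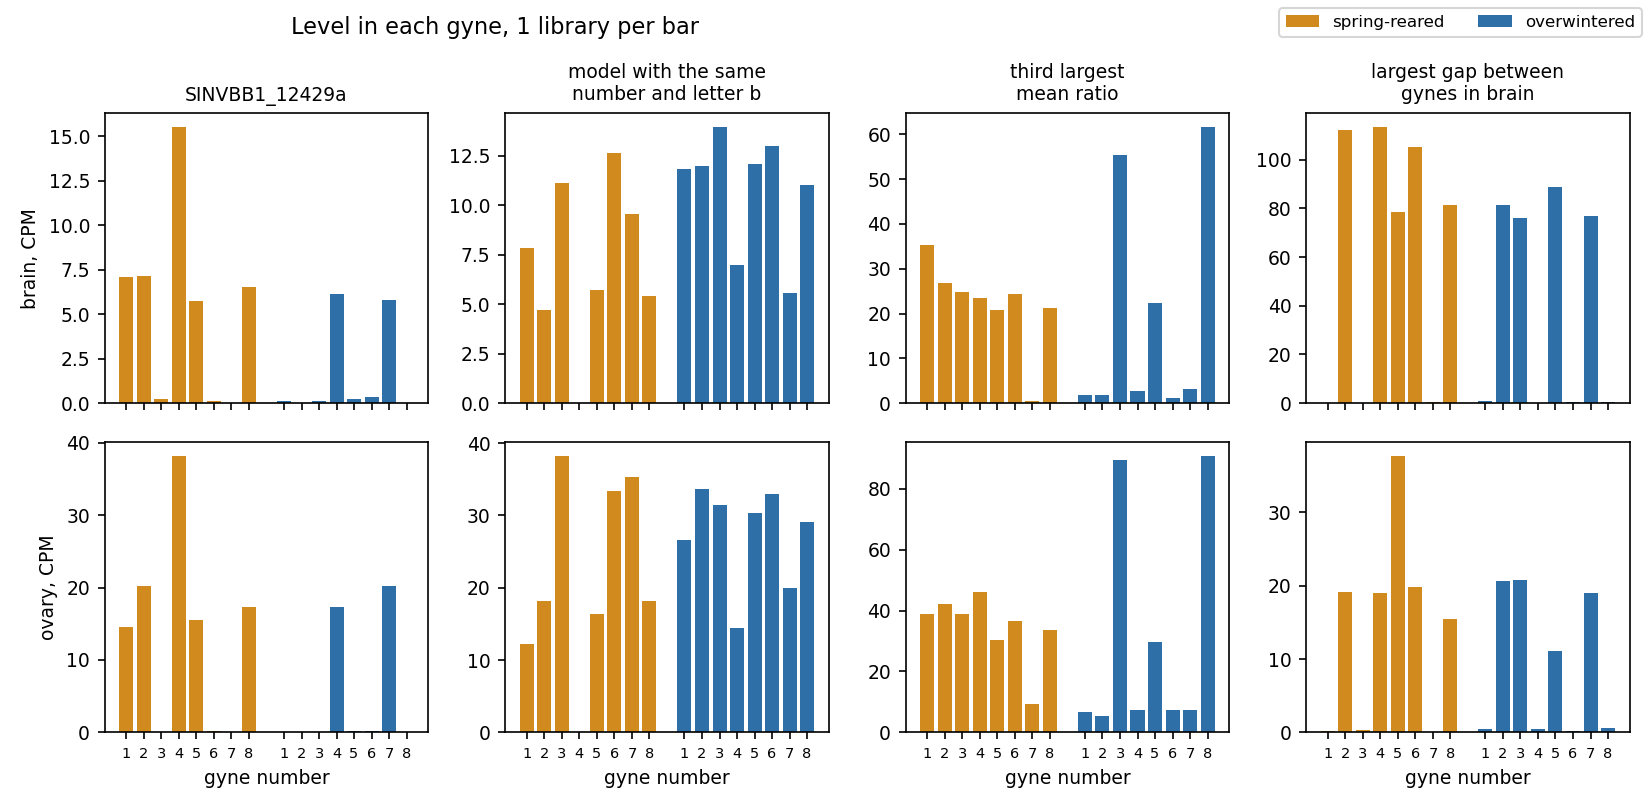
Bars give the CPM of 4 gene models in each of the 16 gynes, brain above and ovary below, spring-reared in orange and overwintered in blue. The model with the same number and letter b is lower in the gynes high for SINVBB1_12429a. It is at 0 CPM in spring-reared gyne 4, the highest for SINVBB1_12429a. Spring-reared gynes 1, 2, 5 and 8 and overwintered gynes 4 and 7 hold both. The other 2 members are each high in the same gynes in both organs.

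The second largest mean ratio belonged to a member whose values moved far more in brain than in ovary. In spring-reared brains it ran from 51.8 to 976 CPM with a median of 592, and in overwintered brains from 1.07 to 29.2 CPM with a median of 5.37, the largest brain ratio of all members, 108.2. All 8 spring-reared brains lay above all 8 overwintered brains. In ovary it ran from 98.8 to 515 CPM (median 195) in spring-reared and from 8.48 to 139 CPM (77.5) in overwintered gynes, a ratio of 2.51 with overlapping groups. It was the 1 member of 85 (1.18%) whose overwintering difference was called different between the organs, where 2.73% of 10448 genes were (edgeR interaction log2 -4.35, SE 0.91, adjusted p = 0.00706). The same gene was higher in brain than in ovary in spring-reared gynes (log2 1.55, SE 0.62, edgeR adjusted p = 0.0249) and higher in ovary in overwintered gynes (log2 -2.80, SE 0.67, adjusted p = 0.0004). This member was picked for its ratios, which rest on the same values, so these p-values are read only as a description.

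The third largest mean ratio was again a matter of which gynes were high. In spring-reared gynes this member ran from 20.7 to 35.3 CPM in 7 brains and from 30.2 to 46.0 CPM in their ovaries, but gyne 7 held 0.560 CPM in brain and 9.25 CPM in ovary. Overwintered gynes 3, 5 and 8 held 55.5, 22.3 and 61.7 CPM in brain and 89.4, 29.5 and 90.8 CPM in ovary, and the other 5 held 1.26 to 3.24 CPM in brain and 5.48 to 7.33 CPM in ovary. The highest libraries of all were therefore overwintered ones, although the ratios of medians were 7.82 in brain and 5.12 in ovary. Group means were 22.1 ± 9.84 CPM for spring-reared and 18.8 ± 25.6 CPM for overwintered brain (SD, n = 8), and 34.5 ± 11.3 and 30.5 ± 37.6 CPM in ovary (SD, n = 8), and so differed by less than 1 SD.

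The fourth and the fifth member by mean ratio had no such split. The fourth ran from 30.0 to 619 CPM (median 156) in spring-reared and from 5.33 to 72.4 CPM (19.5) in overwintered brains, and from 8.47 to 212 CPM (74.0) and from 1.96 to 53.7 CPM (32.6) in ovaries. The fifth ran from 120 to 788 CPM (287) and from 17.4 to 160 CPM (64.6) in brains, and from 107 to 534 CPM (185) and from 12.5 to 94.9 CPM (62.5) in ovaries. All 8 spring-reared ovaries lay above all 8 overwintered ovaries for the fifth; the other 3 pairs of groups overlapped. Gyne 1 held the highest brain value of the fourth in both treatments, 619 and 72.4 CPM.

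SINVBB1_00137 took more counts than any other member in both organs. It ran from 7259 to 43606 CPM (median 15316) in spring-reared and from 1126 to 22022 CPM (8885) in overwintered brains, and from 9917 to 38271 CPM (17635) in spring-reared and from 4590 to 13639 CPM (10743) in overwintered ovaries. The groups overlapped in both organs, with spring-reared gyne 1 highest in brain and in ovary and overwintered brain 6 lowest. The fit across all genes called it lower in overwintered ovary (log2 -0.94, SE 0.29, edgeR adjusted p = 0.0457), a call that 17 of 21 alternatives lost at log2 values from -0.997 to -0.725, and not in overwintered brain (log2 -1.07, SE 0.49, adjusted p = 0.240). Since the rule used both differences, they are read only as a description. Its level did not differ between organs past the threshold in spring-reared gynes (log2 brain over ovary 0.09, SE 0.40, edgeR adjusted p = 0.848) or in overwintered gynes (-0.06, SE 0.40, adjusted p = 0.898). Gynes that were high in brain were not shown to be high in ovary: Pearson r over 8 spring-reared gynes was 0.0196 (exact two-sided permutation p = 0.964) and Spearman rho -0.238 (p = 0.582), and over 8 overwintered gynes 0.0358 (p = 0.916) and 0.0714 (p = 0.882). Both Pearson p-values are 0.964 after adjustment over the 2 treatments. Without the 2 gynes farthest from the median in brain, r was -0.853 in spring-reared and 0.483 in overwintered gynes, so these values rest on single gynes.

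The summed level of all members was dominated by this gene. The 85 members together held 21926 to 75199 CPM (median 34322) in spring-reared and 6211 to 34889 CPM (19173) in overwintered brains, and 16218 to 53428 CPM (26237) in spring-reared and 10434 to 17304 CPM (15601) in overwintered ovaries. SINVBB1_00137 supplied a median of 43.5% of this sum in spring-reared and 44.3% in overwintered brains, and 67.3% and 72.3% in ovaries. Without it, the rest summed to 13448 to 31593 CPM and 5085 to 15302 CPM in brains, and to 6172 to 15157 CPM and 1835 to 7112 CPM in ovaries, overlapping in both organs. Without the 5 members with the most counts in each library, the sums separated the treatments in both organs, 6680 to 12268 CPM against 2917 to 5158 CPM in brain and 4057 to 8078 CPM against 1166 to 3086 CPM in ovary.

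The second, the third and the fourth member by level were called higher in brain than in ovary in both treatments, and the fifth was called so in spring-reared gynes (log2 0.85, SE 0.33, edgeR adjusted p = 0.0212) and not in overwintered gynes (0.72, SE 0.33, adjusted p = 0.0503). No difference between treatments is read from this, since the interaction of the fifth was not called (log2 -0.13, SE 0.46, edgeR adjusted p = 0.938). The second by level ran from 4271 to 14883 CPM (median 7556) in spring-reared and from 655 to 8944 CPM (3827) in overwintered brains, and from 1053 to 4474 CPM (1966) and from 382 to 4172 CPM (882) in ovaries, where overwintered ovary 1 stood far above the other 7. It was higher in brain than in ovary in spring-reared gynes (log2 2.15, SE 0.43, edgeR adjusted p = 0.0001) and in overwintered gynes (1.90, SE 0.43, adjusted p = 0.0002). The third ran from 745 to 1415 CPM (998) and from 482 to 756 CPM (625) in brains, and from 279 to 843 CPM (441) and from 60.4 to 175 CPM (132) in ovaries, with the treatments apart in ovary and overlapping narrowly in brain. The fourth had medians of 960 and 325 CPM in brains and of 434 and 150 CPM in ovaries, and the fifth had medians of 518 and 291 CPM and of 331 and 217 CPM. Of the other 84 members, 18 followed SINVBB1_00137 with a Pearson r above 0.7 within groups in brain, where 1.54% of the genes past the floor did, and 5 in ovary, where 0.805% did.

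Members varied more among gynes of 1 group than other genes did. The median standard deviation of log2(CPM + 1) was 0.731 in spring-reared brain for the members and 0.344 for the genes past the floor, 0.702 and 0.302 in overwintered brain, 0.646 and 0.203 in spring-reared ovary, and 0.670 and 0.277 in overwintered ovary. A rule on ratios of medians favours variable genes, so no test is given. Pairs of members followed each other a little more within groups than pairs of other genes: the median Pearson r over the 3570 pairs was 0.127 in brain, against 0.0232 for the genes past the floor, and 0.249 in ovary, against 0.204. The rule used medians of the same libraries and can favour such pairs too, so nothing is read from this difference.

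In a subset of members, brain and ovary varied alike over gynes, called a shared gyne pattern here. For each gene, brain was correlated with ovary over the 8 gynes of a treatment, on log2(CPM + 1); the correlations are given as a description, and the points share the gyne. The median r of the members was 0.37 in spring-reared gynes, against 0.12 for the genes past the floor, and 0.08 in overwintered gynes, against 0.01. In both treatments r was above 0.7 for 15 members (17.6%), where 1.45% of the genes past the floor reached this. The rule used medians of the same gynes in both organs. It can therefore favour genes whose level is shared by the organs of a gyne, and nothing is read from the shares given here. In spring-reared gynes alone 22 members (25.9%) passed 0.7, where 7.44% of genes did, and in overwintered gynes alone 16 (18.8%), where 5.5% did. Of the 85, 70 members had an r above 0 in spring-reared gynes (82.4%, where 60.5% of genes did) and 48 in overwintered gynes (56.5%, where 50.4% did). The 70 members outside the 15 had a median r of 0.28 and -0.02. By rank, with Spearman's rho in place of Pearson's r, 7 members (8.24%) and 0.939% of genes passed 0.7 in both treatments.

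**Figure D4:**
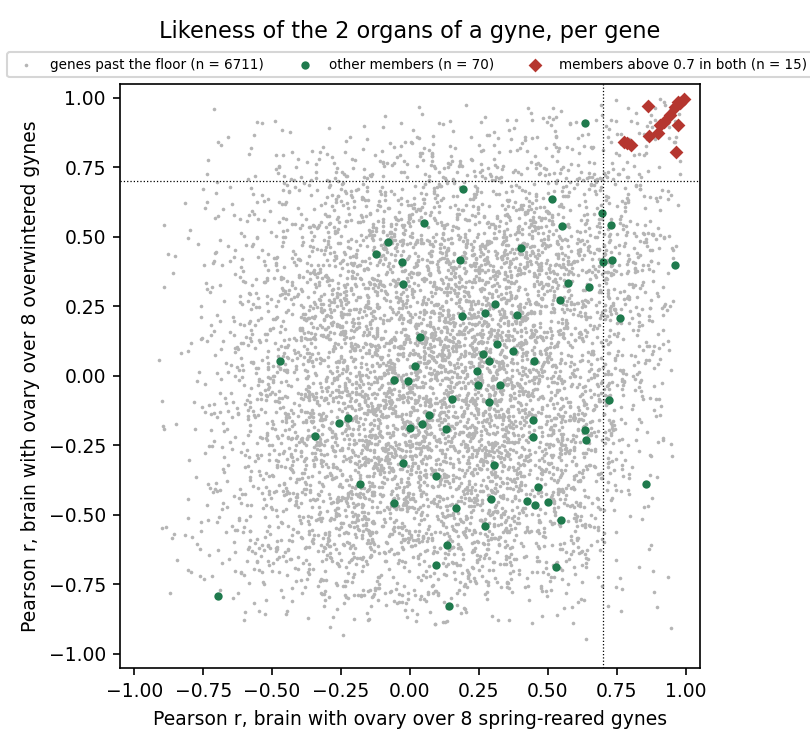
Each point is a gene past the floor, at the Pearson r between brain and ovary over 8 spring-reared gynes (x axis) and over 8 overwintered gynes (y axis), with dotted lines at 0.7. The 15 members drawn as red diamonds lie in the upper right corner, from 0.775 up in spring-reared and from 0.807 up in overwintered gynes, while the other 70 members spread over the width of all genes.

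The 31 members called lower in both organs held 0 of the 15 with a shared gyne pattern. Of the 15, 1 was called in brain and 0 in ovary, and 14 in neither, among them SINVBB1_12429a, which was not tested. Over all genes, 85 of the 8613 tested in both organs were called lower in both. A wide spread within groups makes a call harder to reach, so nothing is read from the lack of overlap. The median ratios of the 15 were 2.08 in brain and 2.28 in ovary, against 1.97 and 1.94 for the other 70, and so lay close to them. Their spread within groups was larger, with median standard deviations of 1.45, 1.23, 0.960 and 1.13 in spring-reared brain, overwintered brain, spring-reared ovary and overwintered ovary, against 0.652, 0.629, 0.571 and 0.585 for the other 70. When each library was left out in turn, 45 of the 85 members met the rule every time, 9 of the 15 among them.

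In 5 of the 15 the largest gap between gynes was at least 2-fold on log2(CPM + 1) and split the 16 gynes alike in brain and ovary. That is 5.88% of the members, where 0.477% of the genes past the floor had such a gap. The rule can favour such genes too, so nothing is read from these shares. In 0 of the 5 did the gap follow treatment, and 2 of the 5 met the rule every time a library was left out. SINVBB1_12429a and the third member by ratio are described above; the other 3 were chosen after their values were seen. The widest gap in brain was that of a member high in spring-reared gynes 2, 4, 5, 6 and 8 and overwintered gynes 2, 3, 5 and 7, with at least 76.2 CPM in brain and 11.2 CPM in ovary, while the other 7 gynes held at most 0.832 and 0.634 CPM. Its high gynes were 5 of 8 spring-reared and 4 of 8 overwintered. The spring-reared medians, 80.1 CPM in brain and 17.3 CPM in ovary, lay above the gap, and the overwintered medians, 38.5 and 5.89 CPM, lay inside it.

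The remaining 2 of the 5 stand on consecutive lines of the files and were high in the same gynes. These were spring-reared gynes 2, 3, 5, 6, 7 and 8 and overwintered gynes 2, 3, 6 and 8, at 25.6 CPM or more in brain for the first and 105.9 CPM or more for the second, with at most 7.25 and 33.6 CPM in the other gynes. In the 25 libraries with at least 5 CPM of each, the second held 2.53 to 4.76 times the first (median 3.58). Their r within groups was 0.980 to 0.998. There were 5 pairs of members on consecutive lines in all, with r from 0.467 to 0.998; whether the order of lines follows position in the genome is not given in the sources used here.

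Further members of the 15 shared gynes with each other. A member chosen after its values were seen was high in spring-reared gynes 1, 2, 6 and 8 and overwintered gynes 1, 4 and 5, at 119 to 252 CPM in brain and 45.7 to 102 CPM in ovary, against 32.5 to 50.9 CPM and 19.1 to 29.2 CPM in the rest. Another 3 varied together over gynes within groups, with r of 0.961, 0.731 and 0.772 between them in brain and 0.941, 0.862 and 0.754 in ovary. The first of these 3 was low in spring-reared gyne 1 (10.8 CPM in brain, 5.58 CPM in ovary) and spring-reared gyne 6 (51.7 and 8.54 CPM), and in overwintered gynes 3, 4 and 8 (22.4 to 39.8 CPM in brain, 5.50 to 11.3 CPM in ovary). The ovaries of spring-reared gyne 4 and overwintered gynes 5 and 7 were also low (13.4, 13.2 and 14.5 CPM). The brains of these gynes held 136, 119 and 79.0 CPM. The group medians of this member were 163 and 98.1 CPM in brain and 49.7 and 13.9 CPM in ovary.

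Over all 85 members, no shared gyne pattern was seen. The median deviation of the 85 members from their group means in brain had a Pearson r of 0.120 with that in ovary over spring-reared gynes (Spearman rho -0.119) and of -0.399 over overwintered gynes (rho -0.429). Without the 2 gynes farthest from the median in brain, r was -0.206 and -0.313. The same for the genes past the floor gave r of 0.145 and -0.156. With 8 gynes a treatment and single gynes moving r this far, no relation between the organs was shown.

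Between organs, which the rule did not compare, a smaller share of members than of other genes was called higher in ovary. The share called higher in brain was larger than that of other genes in spring-reared gynes and near it in overwintered gynes. In spring-reared gynes 41 members (48.2%) were called higher in brain, where 38.9% of 10448 genes were and 35.3% of the genes past the floor (edgeR quasi-likelihood test over all 32 libraries, adjusted p under 0.05). Higher in ovary were 8 (9.41%), where 37.2% of all genes tested and 40.8% of the genes past the floor were. In overwintered gynes 32 (37.6%) were called higher in brain, where 38.4% and 34.1% were, and 13 (15.3%) higher in ovary, where 36.8% and 41.3% were. Members had a wider spread within groups than other genes, which makes a call in either direction harder to reach. The part of this spread in these shares was not tested. The 2 organs also differed in RNA input and extraction kit, and the part of this in the organ difference cannot be told apart from organ.

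**Figure D5:**
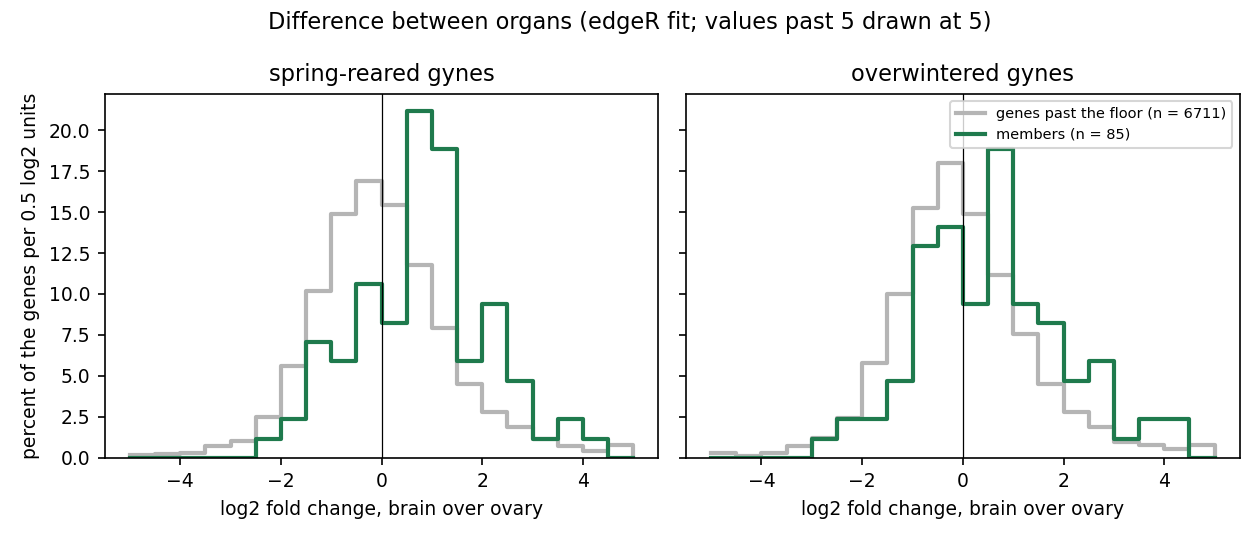
Lines give the percent of genes in each 0.5 step of the log2 fold change of brain over ovary, in spring-reared gynes (left) and overwintered gynes (right), for the 85 members (green) and the 6711 genes past the floor (grey). The green line lies to the right of the grey one, with medians of 0.77 against -0.07 on the left and 0.53 against -0.11 on the right.

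The median log2 difference between organs was 0.77 over the members in spring-reared and 0.53 in overwintered gynes, against 0.03 and 0.02 over all genes tested. Single members ran from -2.06 to 4.11 in spring-reared gynes, and 15 (17.6%) were called and at least 4-fold higher in brain, where 7.78% of the genes past the floor were, and 1 (1.18%) in ovary, where 4.99% were. In both treatments 29 members (34.1%) were called higher in brain, where 30.7% of the genes past the floor were, and 6 (7.06%) higher in ovary, where 36.8% were. A single member was called in opposite organs, the member with the largest brain ratio. No organ was called higher for 36 members in spring-reared and 40 in overwintered gynes, which does not show that their levels were alike. Chosen after their values were seen, the member with the largest spring-reared difference was 4.11 higher in brain on the log2 scale (SE 0.25) in spring-reared and 4.02 (SE 0.25) in overwintered gynes, and the lowest was one of the 15 with a shared gyne pattern, at -2.06 (SE 0.38) and -2.08 (SE 0.38).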

How the data were processed

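Per the labels' protocols, RNA of single brains and ovaries was made into Smart-seq2 libraries, which do not keep strand. The deposited gene counts are whole numbers made by the authors; the submitters' processing notes name Trim Galore 0.6.5, STAR 2.7.3a and edgeR, with genome build and annotation not given in the sources used here. Counts came from the unstranded column, whose 4 lines that name no gene (1.86% to 26.8% unmapped reads per library among them) stayed out of library sizes. CPM tables deposited by the authors hold 7655 genes for brain and 8031 for ovary, with lowest values of 1.13 and 1.12; they list 70 and 75 of the members (66 in both) and were not used for values.

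CPM here are counts divided by the sum of gene counts, times 1000000. The members, the lists and the rules were chosen with earlier results of these data known. Tests across all genes used edgeR 4.0.16 in R 4.3.3 (TMM, filterByExpr, robust quasi-likelihood test, Benjamini-Hochberg adjustment, threshold 0.05), each organ alone for overwintering and all 4 groups for the organ and interaction contrasts. The organ and interaction fits held no term for the gyne, except where the gyne block is named. The exact permutation tests enumerated all orders of 8 gynes. Replicates are separate gynes of separate colonies. Brain and ovary that share a colony code in the labels were taken as 1 gyne. Their deviations from the group means correlated at a mean of 0.183 in overwintered (-0.110 to 0.427) and 0.179 in spring-reared gynes (0.033 to 0.334). Brains and ovaries of different gynes were not compared, so these values do not test the pairing. Same replicate numbers do not pair gynes across treatments.

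The rule for named genes printed the member with the largest mean log2 ratio and, among the others, the one with the highest geometric mean of spring-reared medians; the 5 first by either measure are described. Marker lists could not be used without names. Principal components used log2 CPM with 2 added. The fits were also checked on simulated counts in which 200 genes changed: in brain (9570 genes) 16.4%, 43.3% and 84.8% of 1.5-, 2- and 4-fold changes were recovered with 3.03% false calls, in ovary (9361 genes) 38.8%, 80.6% and 92.4% with 3.42%, and in the organ contrast of spring-reared gynes (10448 genes) 40.3%, 62.7% and 81.8% with 3.15%. For the organ contrast, the simulation drew brain and ovary libraries independently and changed only 200 genes. In the data, 38.9% of genes were called higher in brain and 37.2% higher in ovary in spring-reared gynes. The simulated rates therefore do not carry over to the organ calls. Alternatives were RLE factors, DESeq2 1.42.0 (with simulated false calls of 15.8% for brain and 12.4% for ovary), no filter, blocks, other rule settings, and libraries left out.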

Additional observations from a re-analysis of the deposited data

Results flagged for a closer look

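Of 44 groups of 8 values examined for a single value far from the rest, 9 held one. The chance rate of about 1 in 20 holds for independent, normally distributed values. CPM of members picked for ratio or level, and their sum, are not such values, so the 9 are not read against it. In spring-reared gyne 1, the brain library was far above the other 7 for SINVBB1_00137 (43606 CPM), for the fourth by level (1872 CPM), for the fourth by ratio (618.7 CPM) and for the summed level of the members (75199 CPM). Overwintered brain 1 was far above its group for the fourth by ratio (72.4 CPM). Overwintered ovary 1 was far above its group for the second member by level (4172 CPM). Spring-reared brain 4 was far above its group for SINVBB1_12429a (15.53 CPM), and its ovary was also the highest, at 38.2 CPM. Spring-reared gyne 7 was far below its group for the third member by ratio in brain (0.5597 CPM) and in ovary (9.247 CPM).

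The overwintering difference of the member with the largest brain ratio differed between organs, being more negative in brain (edgeR interaction log2 -4.346, adjusted p = 0.00706). The rule used both differences, so this is a description. For each of these values, the part of technical causes was not tested.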

How the results depend on the processing

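Of 344 recomputed values of the main counts and levels, 328 were counted as near the reported value, 15 moved further and 1 changed sign. The limit for near was wide. It took in 34 brain calls in place of 45 (replicate block) and 58 ovary calls in place of 46 (DESeq2). Without the 5 libraries that stood apart, an alternative chosen after seeing the data, 29 members were called lower in overwintered brain in place of 45, and the correlation of the members' deviation between brain and ovary of overwintered gynes was -0.662. With the replicate block across treatments, whose numbers did not pair gynes (mean correlation -0.061 in brain and -0.121 in ovary), 23 members were called in ovary and 34 in brain; with the gyne as a block, the organ counts were 43 and 9 in spring-reared and 32 and 16 in overwintered gynes. A ratio of at least 2 left 21 members, and Spearman correlation left 7 with a shared gyne pattern. The interaction was called for 2 members with RLE factors and 2 with DESeq2. With 1 library or gyne left out at a time, the members numbered 71 to 96, calls lower in brain 36 to 45 and in ovary 40 to 46, interaction calls 1 to 3, and the spring-reared correlation of the members' deviation ran from -0.553, without gyne 1, to 0.42. For SINVBB1_00137, the lower level in overwintered ovary had log2 values from -1.048 to -0.725 with 1 library left out (adjusted p from 0.00597 to 0.222 over 21 alternatives), and brain was called in 0 of 21 (adjusted p from 0.103 to 0.438). Values near 0 that no fit called changed sign: for SINVBB1_00137, the organ difference was -0.001 in spring-reared gynes under the gyne block and, with 1 library left out, ran from -0.272 to 0.303 in spring-reared and -0.39 to 0.11 in overwintered gynes, and the interaction -0.476 to 0.21; for SINVBB1_12429a, the interaction was 0.349 with that block and -1.185 to 0.435 with 1 library left out. The cause of these changes was not tested. At this depth, medians under 1 CPM rest on few counts, and intervals of counting error would not cover differences among gynes.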
